A study of Rattus norvegicus with 6 samples.

Results

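Gap43, Nes, Ncam1, Ngfr, Mbp and Pmp22 are 6 genes known from axons, Schwann cells and neural progenitors, out of 13336 named genes on the array. They were chosen by function and partly because Gap43 and Nes were higher at day 3 in these samples. The difference between the days is therefore given for them as a description, with no test. Each of the 6 genes has 1 probe by the platform annotation, and all 6 probes passed the filter on low signal. Ncam1 passed it through its day 3 arrays alone.

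The samples are granulation tissue, which fills a wound as it heals, from cellulose covered with hydroxyapatite, the mineral of bone. Each piece had been placed subcutaneously in a Sprague-Dawley rat aged 10 weeks. RNA of 6 implants from 6 rats was measured on Illumina bead arrays with 1 colour. The day 1 group holds rats 1, 2 and 3, taken after 24 hours, and the day 3 group holds rats 4, 6 and 7, taken after 72 hours (n = 3 each). Both groups carry the coated implant, and no implant without the coating and no skin without an implant is among the samples used here. The number of arrays limits the precision.

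A cut through skin severs small nerves. Schwann cells of an injured nerve lose their myelin programme, turn on growth-associated genes and line the path along which axons regrow. Several genes of that programme are also used outside the nervous system. Muscle progenitors make Nes and Ncam1, pericytes and dividing endothelial cells make Nes, and growth-arrested fibroblasts make Pmp22.

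Gap43, Nes, Ncam1 and Pmp22 were higher on every day 3 array than on any day 1 array. The promoter reference holds no window for Gap43 and Ncam1, so promoter windows of Nes and Pmp22 are shown. They are RefSeq promoter windows on the plus strand of the rat assembly GRCr8, 250 bases before to 50 bases after the start that the promoter table gives, for Nes at chr2:175736338-175736637 and for Pmp22 at chr10:48294682-48294981. For Pmp22 that start is also the start of the annotated locus. For Nes it lies 873 bases past the start of the annotated locus, so the Nes window is inside the locus and not upstream of it. Capitals mark matches to 5 motifs searched on either strand. The E-box, bound by helix-loop-helix factors such as those of muscle, was searched as CANNTG. The core bound by SOX factors such as that of Schwann cells was searched as ACAAT. Of general promoter elements, the box of NF-Y was searched as CCAAT, the GC box of Sp factors as GGGCGG, and the TATA box of the basal machinery as TATAAA. The matches shown do not overlap each other.
Nes: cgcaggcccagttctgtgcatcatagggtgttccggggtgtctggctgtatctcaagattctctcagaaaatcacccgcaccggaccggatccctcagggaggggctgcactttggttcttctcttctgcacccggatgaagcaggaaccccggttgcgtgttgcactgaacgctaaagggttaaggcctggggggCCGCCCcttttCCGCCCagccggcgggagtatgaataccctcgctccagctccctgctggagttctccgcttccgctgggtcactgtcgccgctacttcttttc
Pmp22: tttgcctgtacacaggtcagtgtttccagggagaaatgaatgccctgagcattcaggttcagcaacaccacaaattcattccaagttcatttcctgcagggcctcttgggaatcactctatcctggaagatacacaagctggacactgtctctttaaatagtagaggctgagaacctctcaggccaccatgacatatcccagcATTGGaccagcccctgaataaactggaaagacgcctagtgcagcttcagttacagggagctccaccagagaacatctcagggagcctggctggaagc

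The Nes window holds 2 matches to the GC box, 54 and 43 bases before the start, and none to the other 4 motifs. The Pmp22 window holds 1 match to the CCAAT box, 47 bases before the start, and none to the other 4 motifs. Of 33469 promoter windows of this length, 33.1% hold a GC box and 37.5% a CCAAT box. An E-box is held by 72.1% of them, a SOX core by 33.7% and a TATA box by 14.2%. The windows differ in base composition, with 60% G and C for Nes and 49.7% for Pmp22.

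Signals below are log2 values after background correction, and a change is day 3 minus day 1 on that scale. The array median, at 6.47 on every array, serves as a mark of low signal, since no detection p-value could be tied to a sample. Levels are compared between arrays for 1 probe and never between probes.

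Gap43 encodes a membrane protein of growth cones and regrowing axons that reactive Schwann cells also make. Its signal was 7.88, 7.34 and 9.17 in day 1 rats 1, 2 and 3, and 11.40, 11.63 and 11.60 in day 3 rats 4, 6 and 7. The days did not overlap, and day 1 rat 3 stood above the other two day 1 arrays. The mean went from 8.13 ± 0.94 to 11.54 ± 0.12 (SD, n = 3), a change of 3.41 ± 0.426 SE or 10.7-fold. In the deposited intensities this is 340 ± 221 against 3007 ± 251 units. Among the 11591 probes kept, 0.242% had a larger positive change. Whether there were more cells that make a transcript or more of it per cell cannot be told apart in RNA of whole tissue, here and below.

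Nes encodes nestin, an intermediate filament protein of progenitor cells. Day 1 rats 1, 2 and 3 had 6.82, 6.28 and 7.00, with rat 2 below the array median, and day 3 rats 4, 6 and 7 had 9.27, 9.14 and 8.92. Every day 3 array stood above every day 1 array. The change was 2.41 ± 0.205 SE, or 5.31-fold, and 1.19% of the kept probes had a larger positive change. Because the day 1 signal lay near the array median, the size of this change depends on the background step, and it was 2.91 with a smaller offset.

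Ncam1 encodes a cell adhesion molecule of neurons, Schwann cells without myelin and muscle progenitors. Its signal was 5.93, 5.97 and 5.81 in day 1 rats 1, 2 and 3, all below the array median. Day 3 rats 4, 6 and 7 had 7.58, 7.26 and 7.18, all above it. The means were 5.90 ± 0.08 and 7.34 ± 0.21 (SD, n = 3). Set against the array median in place of the dim day 1 signal, Ncam1 was at least 1.83-fold higher at day 3.

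Pmp22 encodes a membrane protein of compact myelin that many fibroblasts and epithelia also make. It had 11.49, 12.14 and 12.25 in day 1 rats 1, 2 and 3 and 13.22, 12.90 and 13.25 in day 3 rats 4, 6 and 7. The days did not overlap, although day 1 rat 3 and day 3 rat 6 lay closer to each other than day 1 rats 1 and 3 did. The change was 1.16 ± 0.219 SE, or 2.24-fold, and 5.81% of kept probes had a larger positive change. Without day 1 rat 1, the lowest array, the change was 0.93.

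Ngfr encodes the neurotrophin receptor that immature and denervated Schwann cells carry. It had 7.03, 7.44 and 7.37 at day 1 and 7.49, 7.55 and 7.34 at day 3, in the same order of rats. The days overlapped, and the change was 0.18 ± 0.144 SE. The lowest value, day 1 rat 1, set much of it, since without that rat the change was 0.06.

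Mbp encodes myelin basic protein, which holds the layers of the myelin sheath together. Its signal was 6.76, 6.70 and 6.67 in day 1 rats 1, 2 and 3 and 6.62, 6.54 and 6.54 in day 3 rats 4, 6 and 7. All values lay just above the array median. Day 3 was below day 1 on every array, by a mean of 0.14 (change -0.14 ± 0.102 SE). Its shift was smaller in size than that of Ngfr in the full fit and larger without day 1 rat 1 (-0.12 for Mbp, 0.06 for Ngfr). In intensity units the means were 120 ± 3.38 and 110 ± 3.22 (SD, n = 3).

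**Figure D1:**
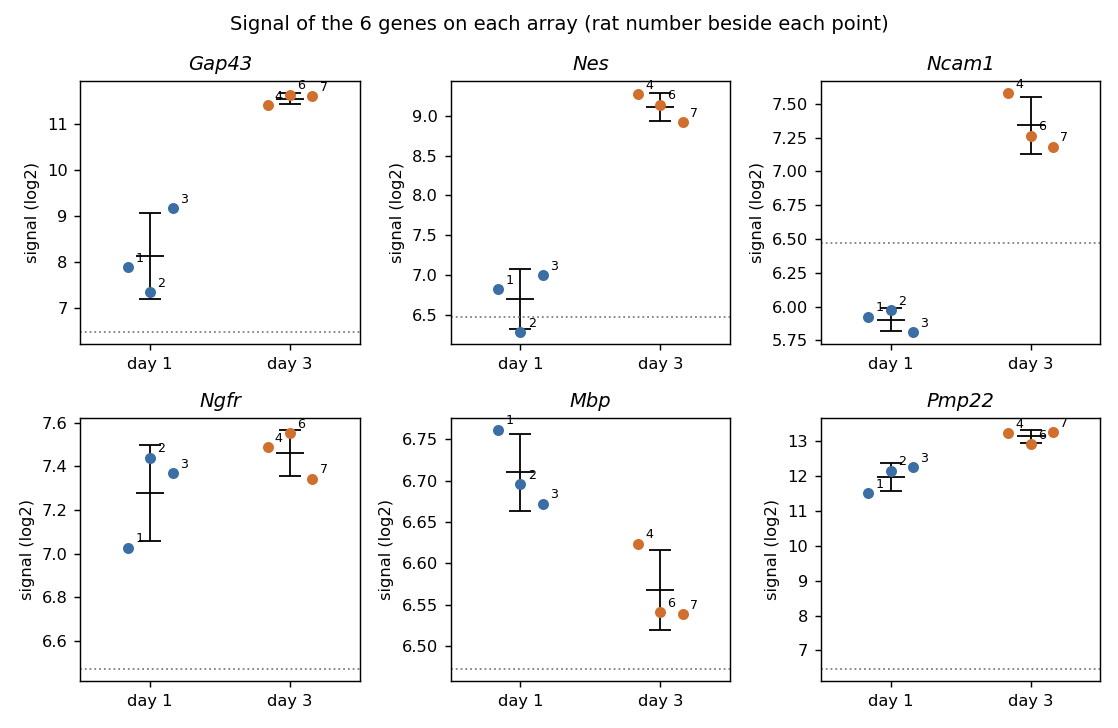
Log2 signal (y axis, its own range in each panel) of Gap43, Nes, Ncam1, Ngfr, Mbp and Pmp22 on each array by day (x axis). Points are single arrays with the rat number, black bars are the mean ± SD (n = 3), and the dotted line is the array median of 6.47. Gap43, Nes, Ncam1 and Pmp22 are higher on all day 3 arrays, Ngfr overlaps, and Mbp lies slightly lower at day 3.

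Of the 6 genes, 4 were higher without overlap (Gap43, Nes, Ncam1 and Pmp22), 1 was lower without overlap (Mbp) and 1 overlapped (Ngfr). Over all kept probes, the days did not overlap for 49.3%, with 23.8% higher and 25.6% lower at day 3. The fit over all probes puts the same 4 genes past an adjusted p of 0.05 as higher, where it calls 31.9% of probes, 16.7% higher and 15.2% lower. Since this contrast entered the choice of the genes, nothing is read from these counts.

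At day 1, Gap43 and Nes had the same order of rats, with rat 2 lowest and rat 3 highest. Rat 3 is 1 of the 2 arrays that carried strong skeletal muscle signal. The 12 tested muscle fibre markers averaged 10.65 on the array of rat 3 and 10.26 on that of rat 6 (day 3), and 6.93 to 7.80 on the other 4 arrays. Without those 2 arrays, the change was 3.89 for Gap43, 2.54 for Nes, 1.43 for Ncam1, 1.42 for Pmp22, 0.18 for Ngfr and -0.15 for Mbp. Ncam1 was highest in day 3 rat 4, where the muscle fibre mean was 7.58. The mean of the 3 tested muscle progenitor markers was 8.57 there, and 7.92 to 8.93 over all 6 arrays. The part of muscle cells in these values was not tested.

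The genes most like each of the 6 over the 6 arrays were found by Pearson correlation of the log2 signal. With 3 arrays a day, any gene that differs between the days scores high, and r is given as a description. Gap43 was most like Gja1, a gap junction protein (r = 0.9997), and Ccna2, a cyclin of DNA replication and mitotic entry (r = 0.9994). For Nes they were Atp1b2, a subunit of the sodium pump, and Trim28, a transcriptional corepressor (r = 0.9989 each). Ncam1 was most like Clec11a, a secreted growth factor of bone and blood stem cells (r = 0.9968), and Hrob (r = 0.9954). Ngfr came closest to Ttc9 (r = 0.9858) and Actb, cytoplasmic actin (r = 0.9806). For Mbp they were Pgk1, a glycolytic enzyme (r = 0.9896), and Arpc1b, a subunit of the actin-branching complex (r = 0.9875). Pmp22 was closest to Zfp330 (r = 0.9938) and Morf4l2 (r = 0.9921). An r over 0.95 was shared with 1155 other kept probes for Gap43, 956 for Nes, 347 for Ncam1, 102 for Mbp, 86 for Pmp22 and 9 for Ngfr.

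Whether other nerve genes differed between the days was asked with 6 further lists of 167 genes that hold none of the 6. Of these, 134 had a probe and 77 passed the filter. In the limma fit over all kept probes, with Benjamini-Hochberg adjustment and a threshold of 0.05, 28 of the 77 rose and 8 fell. This is 46.8% called, against 31.9% of all probes tested, with a median change of 0.16 against -0.05 over all kept probes. Of the 28 that rose, 4 passed the filter through day 3 alone and so had to be higher there, and nothing is read from the difference between these shares. Of the 36 called genes, 22 kept the call whichever rat was left out, and 14 lost it at least once.

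**Figure D2:**
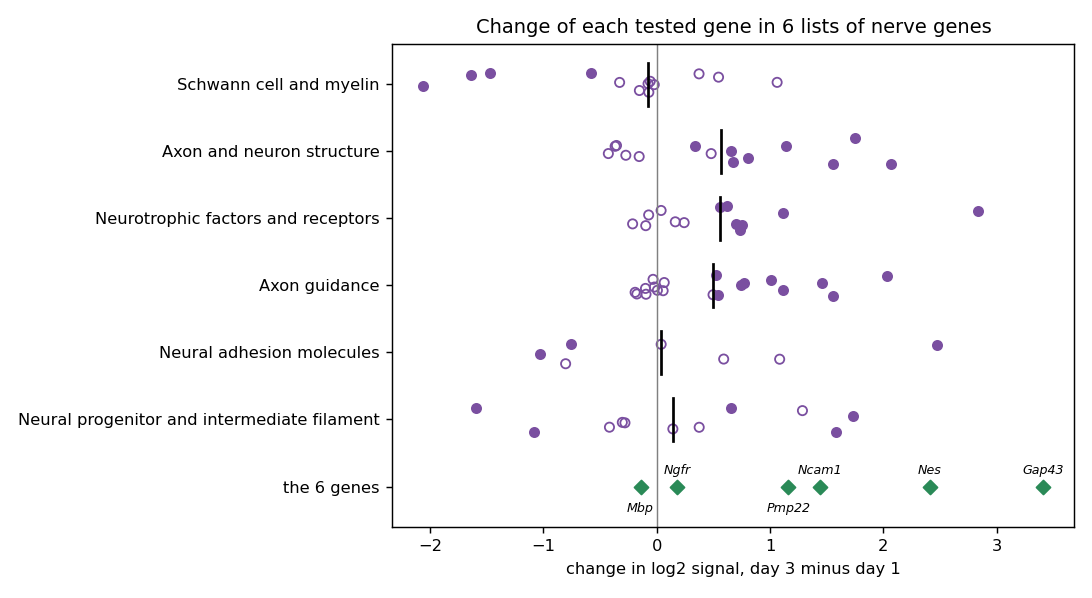
Change in log2 signal, day 3 minus day 1 (x axis), of every tested gene in 6 lists of nerve genes (rows), with the 6 genes in the last row. Filled circles passed the limma test (adjusted p under 0.05), open circles did not, black bars are list medians and diamonds are the 6 genes, shown without a test. The axon, neurotrophic and guidance lists have medians of 0.57, 0.56 and 0.50 over the tested genes shown. Over all genes with a probe these are 0.14, 0.05 and 0.03. The Schwann cell and myelin list has a median of -0.08 over its tested genes.

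Of 28 listed genes of Schwann cells and myelin, 20 had a probe and 13 were tested, of which 4 fell and none rose in limma (median change -0.08). The share called, 30.8%, is close to the 31.9% of all probes, and 2 of these genes, described below, rose when day 1 rat 3 was left out. At an unadjusted p under 0.05, limma called 1 higher and 4 lower. Sox10, the transcription factor that defines the Schwann cell lineage, lay below the array median on all 6 arrays, at 6.05 to 6.26. The myelin proteolipid gene Mal fell 4.16-fold, from 10.69 ± 0.31 to 8.63 ± 0.31 (SD, n = 3; limma adjusted p = 0.00134), and leukocytes also make it. Gldn, a secreted protein at the nodes of myelinated axons, fell 3.10-fold (limma adjusted p = 0.0286). Its call was lost without any rat other than day 1 rats 2 and 3 (adjusted p 0.0535 to 0.0957), and without rat 3 its change was -1.09 in place of -1.63. Egr2, which drives myelination in Schwann cells and is also an early response gene of leukocytes, fell 2.77-fold. Erbb3, the neuregulin receptor of Schwann cells, fell 1.49-fold.

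S100b, a calcium-binding protein of Schwann cells and other glia, had 6.40, 6.53 and 7.54 in day 1 rats 1, 2 and 3 and 7.28, 7.31 and 7.51 in day 3 rats 4, 6 and 7. Its days overlapped through day 1 rat 3 alone. In the full fit it did not pass (change 0.55, limma adjusted p = 0.198), and without day 1 rat 3 its change was 0.90 with adjusted p = 0.00239. Cldn5, a tight junction gene chiefly of endothelial cells, did likewise, with a change of 1.06 (limma adjusted p = 0.0828) and 1.46 without that rat (adjusted p = 0.00779). Cdh19, an adhesion gene of Schwann cell precursors, had 8.09, 8.24 and 8.11 at day 1 and 7.71, 8.07 and 7.66 at day 3. Its days did not overlap, but it did not pass (limma adjusted p = 0.125). Without day 1 rat 3 and day 3 rat 6 its change was -0.47 and it passed as lower (limma adjusted p = 0.0472).

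**Figure D3:**
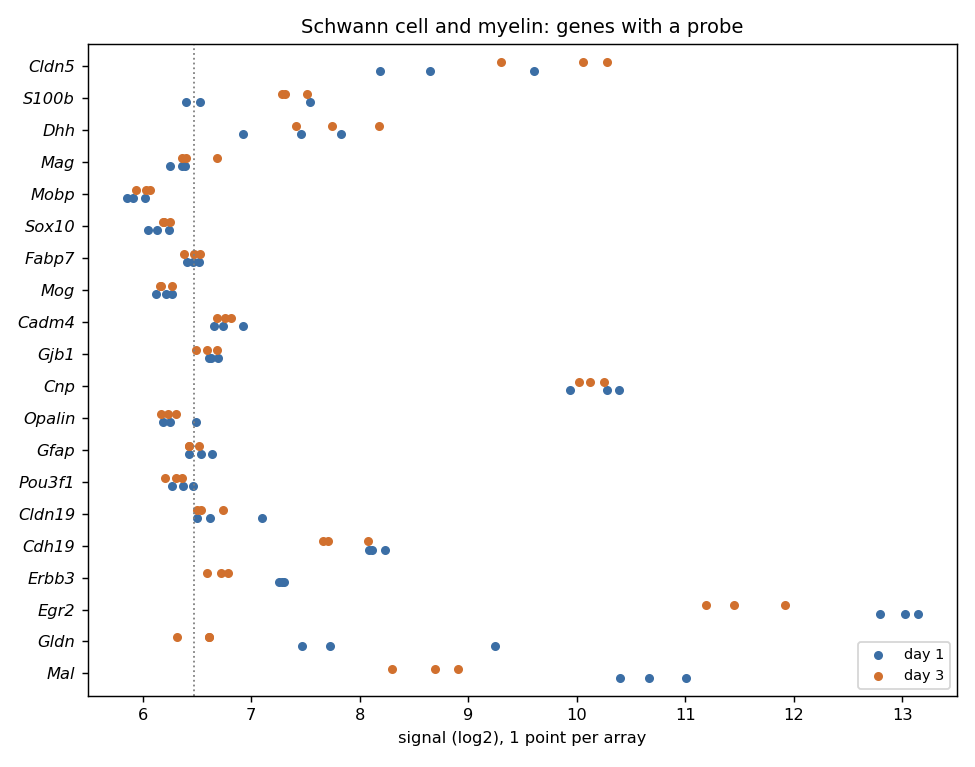
Log2 signal (x axis) of the 20 Schwann cell and myelin genes with a probe (rows), 1 point per array, blue for day 1 and orange for day 3, with the dotted line at the array median of 6.47. Mal, Gldn, Egr2 and Erbb3 are lower at day 3, and Sox10, Mobp, Mog and Pou3f1 lie at or below the line on every array.

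Of 31 listed genes of axon growth and neuron structure, 28 had a probe and 14 were tested; 8 rose and none fell, where 16.7% of all probes rose and 15.2% fell. The median change was 0.57 over the tested genes and 0.14 over all 28 with a probe. Basp1 and Marcksl1 encode membrane-bound proteins that act on actin beneath the membrane much as Gap43 does. Basp1 had 10.70, 10.42 and 10.80 at day 1 and 12.27, 12.16 and 12.15 at day 3, a 2.94-fold rise (limma adjusted p = 0.000723). Marcksl1 rose 2.20-fold (limma adjusted p = 0.0102). Both held their call with any rat left out.

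Stmn1, a tubulin-binding protein of growing and dividing cells, rose 4.19-fold, from 7.40 ± 0.63 to 9.47 ± 0.34 (SD, n = 3; limma adjusted p = 0.00488). Stmn2, its relative in growth cones, had 6.58, 6.53 and 7.07 at day 1 and 7.23, 7.79 and 7.58 at day 3, and rose 1.75-fold (limma adjusted p = 0.0242). The Stmn2 call was lost without day 1 rat 1 or 2 or without day 3 rat 6 or 7 (adjusted p 0.065 to 0.0843). Dpysl3 and Crmp1, which pass on guidance signals to the cytoskeleton of growth cones, were under the array median in all 3 day 1 rats and over it at day 3. They were at least 2.99-fold and 1.32-fold higher at day 3. Both entered the test through day 3 alone, so their presence among the tested genes is tied to that difference.

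Several structural and transmitter genes of mature neurons were at or below the array median on all 6 arrays, namely the neurofilament gene Nefl, the synaptic genes Snap25 and Syt1, the dendritic gene Map2, the peptide genes Calca, Tac1 and Vip, and Th, the enzyme of catecholamine synthesis. In all, 10 of the 28 genes with a probe were at or below it on every array. The filament genes Prph, Nefm and Ina, by contrast, were above the array median on all 6 arrays, and the synaptic gene Syp on 5. None of them passed in the full fit (limma adjusted p = 0.318, 0.0788, 0.125 and 0.3905). Tubb3, a tubulin chain of neurons, had 8.09, 8.85 and 8.21 at day 1 and 8.78, 9.13 and 8.68 at day 3, and did not pass (limma adjusted p = 0.150; 0.0251 without day 1 rat 2). The peptide gene Npy rose 1.60-fold (limma adjusted p = 0.0383), and its call was lost without every rat other than day 1 rat 3 and day 3 rat 7 (adjusted p 0.0984 to 0.12). The 2 probes of Map1b, a microtubule protein of axons, had changes of 0.34 and 0.78, and both passed in the full fit (limma adjusted p = 0.044 and 0.0112). The first probe stands for the gene, and it lost its call whichever rat was left out (limma adjusted p 0.0597 to 0.157). Leaving out day 1 rat 1, or day 3 rat 6, left 5 genes of the list that rose in place of 8.

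**Figure D4:**
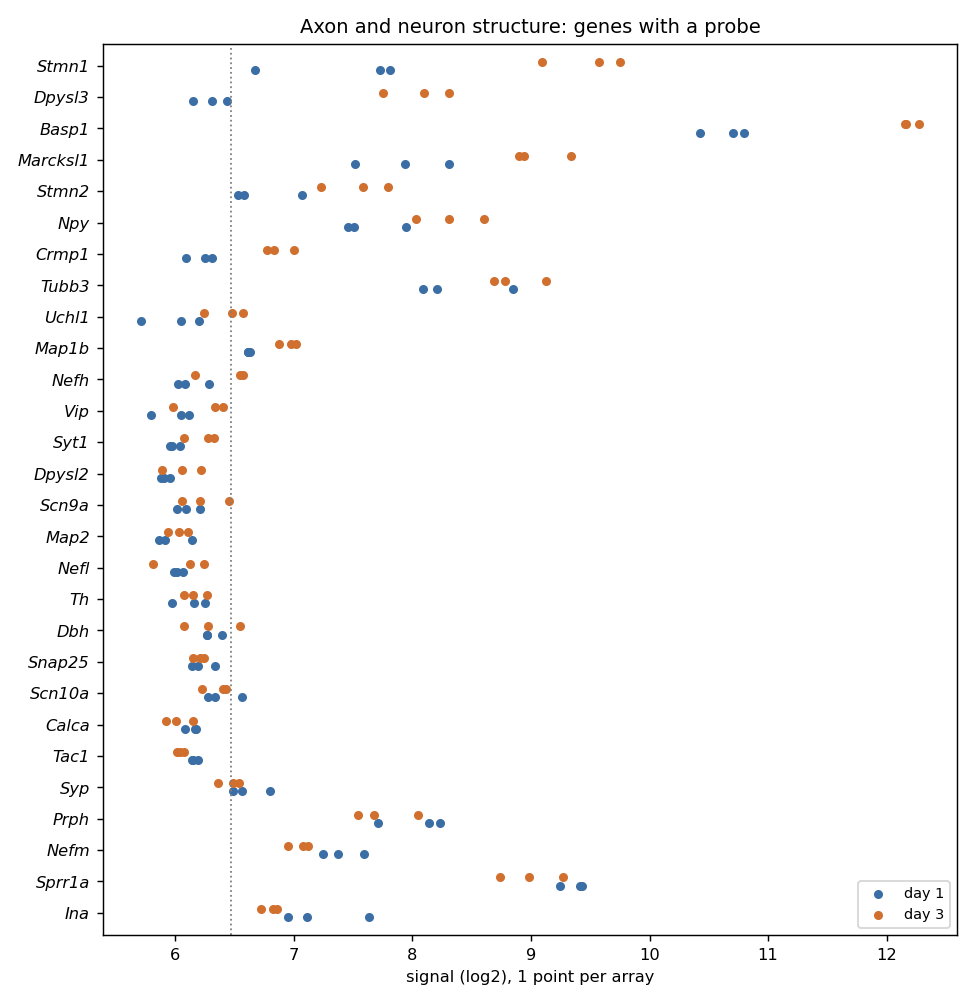
Log2 signal (x axis) of the 28 axon and neuron structure genes with a probe (rows), 1 point per array, blue for day 1 and orange for day 3, with the dotted line at the array median of 6.47. Stmn1, Dpysl3, Basp1 and Marcksl1 have the largest rises, and 10 genes lie at or below the line on every array.

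Among neurotrophic factors and their receptors, 29 were listed, 27 had a probe and 13 were tested. Of these, 7 rose and none fell, where 16.7% of all probes rose and 15.2% fell. The median change was 0.56 over the tested genes and 0.05 over all 27 with a probe. Of the listed partners of the receptor made from Ngfr, Sort1 and Ntrk2 had changes of -0.07 and -0.21 and did not pass (limma adjusted p = 0.748 and 0.343). Lingo1 and Rtn4r did not pass the filter. Several genes that rose encode other partners or relatives of that receptor, while Ngfr itself overlapped between the days. Maged1, an adaptor that binds the inner part of that receptor, had 10.75, 9.84 and 11.76 in day 1 rats 1, 2 and 3 and 13.62, 13.80 and 13.44 in day 3 rats 4, 6 and 7. It rose 7.13-fold (limma adjusted p = 0.00449) and kept its call with any rat left out. Bex3, another binding partner of the receptor, rose 2.16-fold (limma adjusted p = 0.0167). Leaving out day 1 rat 1 or day 3 rat 6 ended its call (limma adjusted p = 0.0638 and 0.0657).

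Nradd, a membrane protein with a death domain like that of the receptor, rose 1.69-fold (limma adjusted p = 0.0148). It did not pass without day 1 rat 1 (0.0558) or day 3 rat 6 (0.0513). Sorcs2, a co-receptor for uncleaved neurotrophins, rose 1.48-fold on 1 probe (limma adjusted p = 0.0129). Leaving out day 3 rat 6 or rat 4 ended its call (0.0515 and 0.0569), and its second probe, below the filter, had a change of -0.02. Artn, a ligand of the GDNF family that acts on sensory and sympathetic neurons, rose 1.54-fold (limma adjusted p = 0.0118). Gfra2, the receptor of the related ligand neurturin, rose 1.66-fold (limma adjusted p = 0.00913). The neurotrophin genes Ntf3 and Ntf4, Gdnf and the signalling receptor gene Ret were at or below the array median on all 6 arrays, as were 12 of the 27 genes with a probe. Without day 3 rat 6, 4 genes of the list rose in place of 7.

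**Figure D5:**
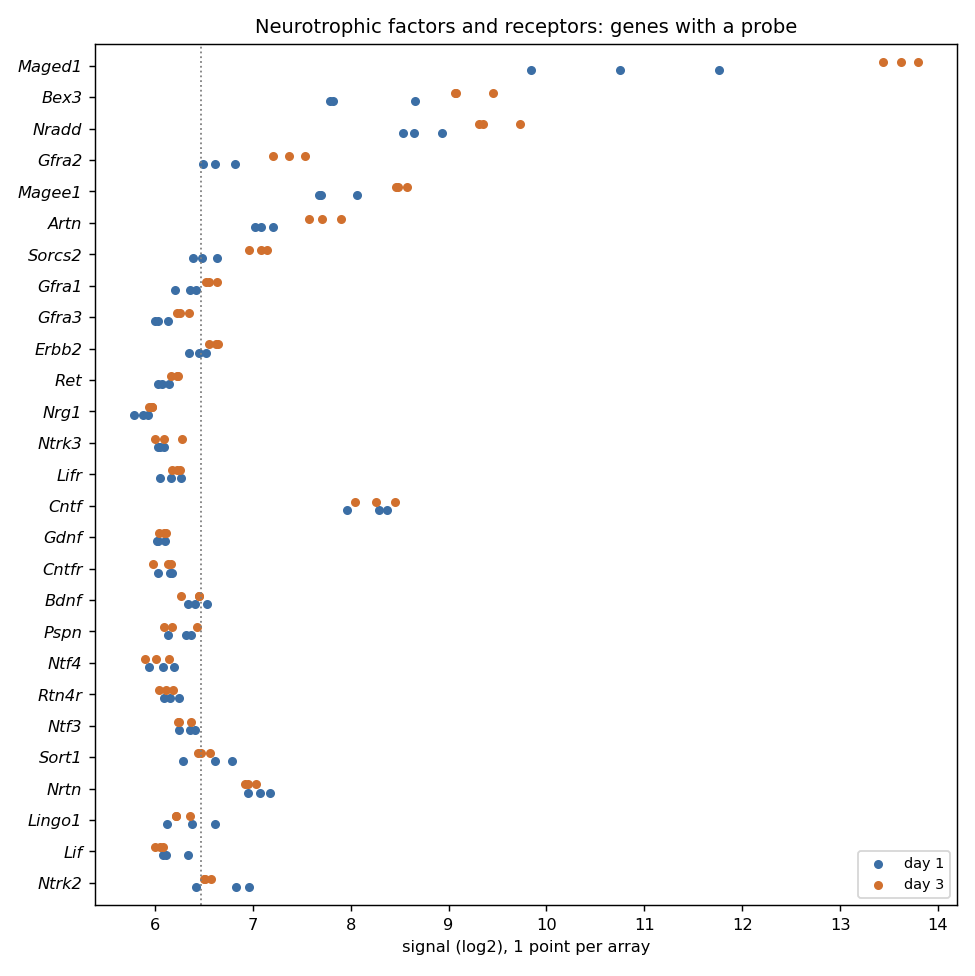
Log2 signal (x axis) of the 27 neurotrophic factor and receptor genes with a probe (rows), 1 point per array, blue for day 1 and orange for day 3, with the dotted line at the array median of 6.47. Maged1 has the largest rise, 2.83 on the log2 scale, and 12 genes lie at or below the line on every array.

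Of 19 tested axon guidance genes, 9 rose and none fell, where 16.7% of all probes rose and 15.2% fell. Of the 9, Plxna2 and Efna5 entered the test through day 3 alone. Leaving out 1 rat gave 6 to 9 rises. Nrp1 lost its call in 3 of the 6 such fits, and Plxna2 and Ephb2 in 2 each (limma adjusted p up to 0.0917). The median change was 0.50 over the tested genes, 0.29 without day 1 rat 2, 0.24 with array weights and 0.03 over all 29 with a probe. Efnb1, a membrane-bound ephrin, rose 4.10-fold, from 7.38 ± 0.61 to 9.42 ± 0.54 (SD, n = 3; limma adjusted p = 0.00763). Slit3, a secreted repellent that fibroblasts and endothelium also make, had 7.44, 7.57 and 7.75 at day 1 and 9.25, 9.43 and 8.75 at day 3, and rose 2.93-fold (limma adjusted p = 0.00225). Sema3b, a secreted semaphorin, and Epha4, an ephrin receptor, rose 2.16-fold and 2.01-fold. The related Slit2 had a change of -0.19 and the growth inhibitor Rtn4 one of -0.02, and neither passed (limma adjusted p = 0.428 and 0.930). When a probe had to exceed the median in every rat, 5 genes of the list rose, with a median of 0.28.

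The other two lists moved both ways. Of 7 tested neural adhesion genes, 1 rose and 2 fell, where 16.7% of all probes rose and 15.2% fell. Thy1, a surface protein of neurons and of fibroblasts, rose 5.55-fold (limma adjusted p = 0.0107). St8sia4, the enzyme that adds polysialic acid to the protein of Ncam1, fell 2.04-fold (limma adjusted p = 0.0121, and 0.0521 without day 3 rat 6). Its second probe had a change of -0.92 (limma adjusted p = 0.00214). Alcam fell 1.69-fold (limma adjusted p = 0.045), and lost its call without day 1 rat 1 or 2 or day 3 rat 6 or 7 (0.0845 to 0.118). Left-out rats gave 1 to 2 rises and 0 to 2 falls, with 2 rises without day 1 rat 1 or 3, no fall without day 3 rat 6, and 1 fall without day 1 rat 1 or 2 or day 3 rat 7.

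Of 11 tested genes of neural progenitors and intermediate filaments, 3 rose and 2 fell, where 16.7% of all probes rose and 15.2% fell. Twist1, a transcription factor of neural crest and mesenchyme, rose 3.32-fold (limma adjusted p = 0.00473), and Sox4, of progenitor cells, rose 3.00-fold (limma adjusted p = 0.000462). Cdk5, a kinase of neurons, rose 1.58-fold (limma adjusted p = 0.00595). Cd24, a surface protein of neuroblasts and also of leukocytes, fell 3.02-fold (limma adjusted p = 0.0217), and Notch1 fell 2.12-fold (limma adjusted p = 0.0339). Cd24 lost its call without day 1 rat 1 or any day 3 rat (0.0523 to 0.08), and Notch1 without every rat other than day 1 rat 3 (0.06 to 0.114). Sox2, Sox11, Pax6 and Hes5, which mark neural progenitors, were at or below the array median on all 6 arrays. Msi1 and Hes1, of the same list, were above it on all 6 arrays, and Prom1 on 4. Day 3 lay below day 1 without overlap for Msi1 and above it for Hes1. None of them passed in the full fit (limma adjusted p = 0.0779 for Msi1, 0.0823 for Hes1 and 0.526 for Prom1). The filament partners of nestin did not pass: Vim had a change of 0.14 (limma adjusted p = 0.518) and Des one of 1.29 (limma adjusted p = 0.0945; 0.0144 without day 1 rat 3).

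Markers of other cells moved between the days as well, and their part in the values above was not tested. Beside the counts that follow, 16.7% of all probes rose and 15.2% fell. All 10 tested fibroblast markers rose, with a mean signal over the list of 9.05 to 10.74 on day 1 arrays and 12.74 to 13.04 on day 3 arrays. Of these 10 markers, 8 to 10 rose with 1 rat left out. Within day 1, the fibroblast mean had the same order of rats as Gap43 and Nes. The endothelial, pericyte, macrophage, natural killer and T cell, adipocyte and muscle progenitor means shared this order. Those of the muscle fibre, neutrophil and keratinocyte lists did not. Of 7 tested endothelial markers, 6 rose (8.37 to 9.48 at day 1, 10.13 to 10.45 at day 3). Of 6 tested pericyte and smooth muscle markers, 3 rose (7.24 to 8.24, then 8.99 to 9.25), among them Cspg4, a surface proteoglycan of pericytes and glial progenitors. Of 7 macrophage markers, 5 rose, and of 7 neutrophil markers, 6 fell. With 1 rat left out, 2 to 7 endothelial markers rose (3 without day 1 rat 1 or day 3 rat 4, 2 without day 3 rat 6 or 7) and 1 to 6 macrophage markers (1 without day 1 rat 1 or day 3 rat 6 or 7, 2 without day 1 rat 2). Without day 1 rat 3, 5 pericyte markers rose. Among the 8 tested markers of natural killer and T cells, 1 fell and none rose (7.59 to 8.13, then 7.57 to 7.70), and 2 fell without day 1 rat 3. Of the muscle progenitor list, Myod1, Pax7 and Myh3 were at or below the array median on all arrays. The 3 tested markers, Myf5, Chrnd and Des, were above it on all arrays. None of the 3 passed, while 1, Des, did without day 1 rat 3. Of 12 muscle fibre markers 1 fell (none without day 1 rat 1), and of 5 adipocyte markers 1 rose (none without day 3 rat 4 or 7). The 1 tested keratinocyte marker rose, and did not pass without day 1 rat 1 or any day 3 rat.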

How the data were processed

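Gene expression was measured in 6 implants on Illumina bead arrays. Per the labels' protocols, DNase-treated RNA (100 ng) was amplified with a biotin label. The authors' deposited values are linear intensity values for 22517 probes, already quantile normalized (the sorted columns differ by at most 0.535 units), and per the submitters' processing notes limma was used, with no version. Any background step of the authors is not given in these sources. A second deposited table before normalization has 12 columns whose headers match no label, and it was not used.

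Background was corrected with normexp (offset 50, alternative 16) (limma 3.58.1, R 4.3.3) before taking log2, so folds of dim probes are understated. A probe was kept if it exceeded the array median in 3 or more of 6 arrays (11591 probes). Day 3 was compared with day 1 in a two-sided limma fit (lmFit, eBayes), adjusted by Benjamini-Hochberg across the kept probes. A probe below the median on every array of 1 day is given a lower bound against the median. For genes with several kept probes, the brightest stands for the gene. The labels name separate rats, so p-values measure the spread between rats. The rats of the 2 days carry different numbers, and no pairing was fitted. The fit was tested on simulated data.

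The platform annotation gives 1 symbol to 13787 probes, several to 0 and none to 8730. Symbols were checked against GRCr8, used for names and RefSeq promoters only. The members and lists were chosen with earlier results of these data known. Named genes are the 6, the 2 called genes of each nerve list with the largest change (the smallest p where none was called), further called or dim genes of those lists, and the 2 genes most like each of the 6. Lists of other cell types are given as counts, although the rule also picks genes from them. Slit2, Rtn4, S100b, Cldn5, Cdh19, Tubb3, Vim, Sort1, Ntrk2, Lingo1, Rtn4r, Myf5 and Chrnd were named after their values were seen. So were Prph, Nefm, Ina, Syp, Msi1, Hes1 and Prom1.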

Additional observations from a re-analysis of the deposited data

How the results depend on the processing

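No paired analysis was possible because the 2 days share no rat numbers. The direction of Gap43, Ngfr, Mbp and Pmp22 held under every alternative run. That of Nes and Ncam1 held under all but one, the filter on every array, which both fail. With offset 16 the change was 2.91 for Nes, 2.31 for Ncam1 and -0.22 for Mbp, and with no background correction 1.24 for Ncam1. Array weights gave 1.60 for Pmp22, 0.38 for Ngfr and 6123 called probes, and a threshold of 0.01 gave 1593. Leaving out 1 rat gave 2016 to 4902 called probes, changes of 3.02 to 3.93 (Gap43), 2.20 to 2.56 (Nes), 1.32 to 1.52 (Ncam1), 0.06 to 0.26 (Ngfr), -0.17 to -0.12 (Mbp) and 0.93 to 1.31 (Pmp22), 0 to 2 Schwann and myelin genes higher, 5 to 7 axon genes higher and 0 to 1 lower (1 without day 1 rat 3), 4 to 7 neurotrophic genes higher, 1 to 2 adhesion genes higher and 0 to 2 lower, and 0 to 3 progenitor genes lower. Array weights called 2 Schwann and myelin genes higher, 2 axon genes lower, 2 adhesion genes higher, and 5 progenitor genes higher and 4 lower, and turned the progenitor median to -0.037. When a probe had to exceed the median on each of the 6 arrays, 5 axon genes, 5 guidance genes and 0 adhesion genes rose. The intensity trend gave 2 adhesion genes higher and 4 progenitor genes lower. Without a filter, 3 adhesion genes rose and 1 fell, and 1 progenitor gene fell. Without day 1 rat 3 and day 3 rat 6, 2 Schwann and myelin genes rose (S100b and Cldn5) and Cdh19 also passed as lower. In that setting 2 adhesion genes rose and 1 fell, and 1 progenitor gene fell. The cause of these shifts was not tested, other than the fewer or more genes tested under another filter. Cyclic loess changed none of these counts by over 1.5 times, and averaging a gene's probes was run for the list medians alone. Signal near the array median, as for Mbp, limits what a fall can show. Signal below it at day 1, as for Ncam1, limits how well the size of a rise is known.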

Other observations

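The contactin genes Cntn1 and Cntn2 encode adhesion molecules of axons and their sheath. Both lay below the array median of 6.47 on all 6 arrays and were tested only where no filter was used. Cntn1 nevertheless had 5.88, 5.81 and 6.07 in day 1 rats 1, 2 and 3 and 6.37, 6.38 and 6.41 in day 3 rats 4, 6 and 7. Cntn2 had 5.91, 5.87 and 6.10 at day 1 and 6.25, 6.33 and 6.33 at day 3. Uchl1, a ubiquitin hydrolase of neurons, had 5.71, 6.04 and 6.20 at day 1 and 6.57, 6.48 and 6.24 at day 3, so its days did not overlap either. Ina and Nefm, which encode intermediate filaments of neurons, went the other way, with every day 3 array below every day 1 array. Ina went from 7.23 to 6.80 and Nefm from 7.40 to 7.05 in the mean, and neither passed the limma test (adjusted p = 0.125 and 0.0788). These genes were picked after their values were seen.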
